A study of Mus musculus with 12 samples.

Results

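The genes of oxidative phosphorylation that are encoded in the nucleus were taken by symbol from a table of glomerular mRNA in mice. The rule kept every symbol that begins with Nduf, Uqcr, Atp5 or Cox4 to Cox8, together with Sdha, Sdhb, Sdhc and Sdhd, and it found 88 of the 14096 listed genes. They comprise 36 subunits of complex I, 7 assembly factors of complex I (the Ndufaf genes), 4 subunits of complex II, 8 of complex III, 16 of complex IV and 15 of complex V, the ATP synthase. The remaining 2, Atp5s and Atp5sl, carry the ATP synthase prefix but are not counted as subunits here. Ndufa4 and Ndufa4l2 were placed with complex IV, where the NDUFA4 protein is known to reside. None of the genes on the mitochondrial chromosome is listed (0 genes), so the values cover the nuclear share of each complex.

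The mRNA came from glomeruli of 12 male eNOS−/− mice of the C57BL/6J strain, with 3 mice in each of 4 groups. Diabetes was induced with streptozotocin (STZ), a toxin of pancreatic beta cells, injected at 50 mg/kg on 5 days from 8 weeks of age, and nondiabetic mice were given citrate buffer instead. Arctigenin (ATG), a plant lignan, was given by gavage at 40 mg/kg per day in 5% DMSO, starting 10 weeks after induction and lasting 8 weeks. The other mice received 5% DMSO alone, and all glomeruli were taken 18 weeks after induction. The groups are written as in the labels: Con_DMSO (nondiabetic, vehicle), Con_ATG (nondiabetic, ATG), DM_DMSO (diabetic, vehicle) and DM_ATG (diabetic, ATG). The loss of eNOS, the nitric oxide synthase of endothelium, is shared by the control mice, so no group has the gene intact. The labels name the kidney glomerulus as the source of all 12 libraries, while their treatment protocol also describes dissociation and a sort for a fluorescent protein that the study's methods do not mention.

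Oxidative phosphorylation is the stepwise transfer of electrons from NADH and succinate to oxygen in the inner mitochondrial membrane. Complexes I and II take up the electrons, complex III passes them to cytochrome c, complex IV reduces oxygen, and the proton gradient that complexes I, III and IV build is spent by complex V to make ATP. In the kidney, tubule cells are known for their dense mitochondria and reliance on oxidative metabolism, whereas podocytes, endothelial cells and mesangial cells of the glomerulus hold fewer.

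Reads on listed genes ranged from 23.6 to 29.8 M (mega) per mouse, and a member received between 48 and 82286 reads in a mouse. The deposited value is the log2 of reads after scaling by a single factor per library and is not divided by gene length, so a difference of 1 is a doubling. Nos3, the deleted gene, was listed at log2 10.07 to 11.4 in the 12 mice. A value over the whole gene does not separate the deleted exons, so it does not check the genotype. All 20 podocyte, 20 endothelial and 16 mesangial markers of the lists used here were listed, the lowest at log2 8.99, and so were the 35 proximal tubule and 19 distal nephron markers, the lowest at log2 5.67. DM_DMSO mouse 3 and Con_ATG mouse 3 had the lowest and the highest mean of the distal nephron markers, and results that rest on them are given with and without them. Title prefixes differ between groups, so any batch they mark and the group cannot be told apart.

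Levels between genes were compared as reads per kb of listed transcript length, per M reads on listed genes, in Con_DMSO mice. The median level per length was 491 for the subunits of complex V, 376 for complex III, 297 for complex IV, 202 for complex II and 152 for complex I, against 12.2 for the assembly factors of complex I. Atp5b, the catalytic beta subunit of ATP synthase, was the highest member at 1078 ± 31.1 (SD, n = 3), above 99.84% of listed genes. Cox8a, a small subunit of complex IV, followed at 937.5 and Cox6a1 at 891.1 ± 27.2 (SD, n = 3), and these neighbours in the order lay further apart than their SDs. At the other end stood Cox6b2 at 4.304 ± 0.174 and Cox4i2 at 4.60 ± 0.96, which did not differ beyond their spread, and both are restricted isoforms of complex IV. The 36 complex I subunits ran from 40.7 for Ndufa11 to 372.9 for Ndufb4. Assembly factors, which help to build complex I and then leave it, ran from 6.42 for Ndufaf5 to 24.5 for Ndufaf3, so that no assembly factor reached the level of any complex I subunit. Ndufa11, Ndufb4, Cox8a, Cox6a1 and Ndufaf5 were picked here for their place in the order.

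**Figure D1:**
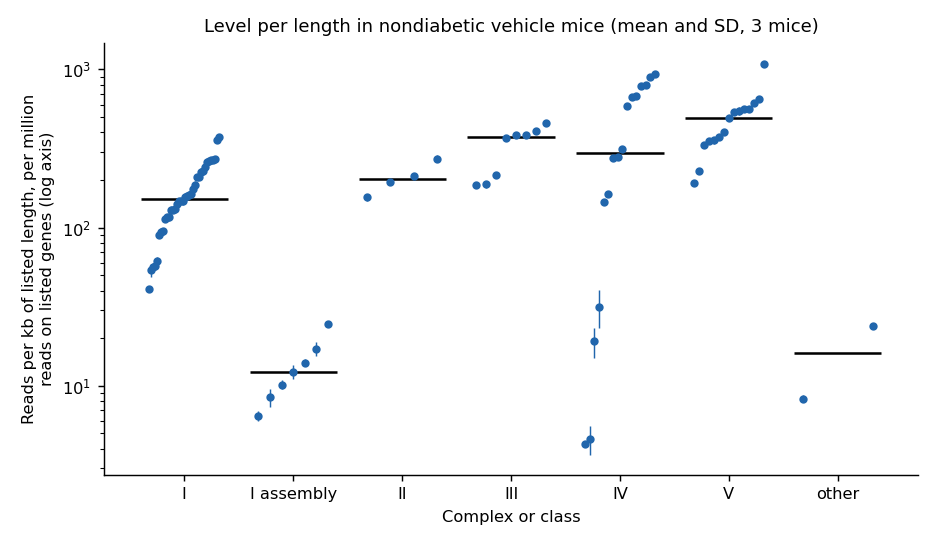
Level per length of each of the 88 genes in nondiabetic vehicle-treated mice, by complex. Each point is the mean of 3 mice with its SD on a log axis and each line is the median of a class, which falls from 491 in complex V to 12.2 in the complex I assembly factors. The low points of complex IV are Cox6b2, Cox4i2, Ndufa4l2 and Cox7a1.

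The sequence before the members' start sites was searched for letters bound by factors of mitochondrial gene control. RefSeq promoters of GRCm38.p6, 250 bases before to 50 bases after each start, were found for 74 of the 88 members. The letters read by nuclear respiratory factor 1 (NRF1), which are GCGCA, any base and GCGC, searched on both strands, stood in 19 of the 74 promoters (25.7%), against 10.5% of the 11151 listed genes with a promoter entry and 5.19% of all 27025 entries. On the same terms AAGATGGC, read by YY1, stood in 11 (14.9%, against 4.92% of listed genes), TCAAGGTCA, read by estrogen-related receptor alpha, in 2 (2.7%, against 0.314%), CCGGAAGT, read by GABPA, in 5 (6.76%, against 8.36%) and ACGTG, the core read by hypoxia-inducible factors, in 19 (25.7%, against 28.2%). Stretches of 250 bases before the start are shown for 4 members, 5′ to 3′ on the strand of the gene, with the NRF1 letters in capitals. Ndufb4 (chr16:37654369-37654618, minus strand, GRCm38.p6) and Atp5c1 (chr2:10080433-10080682, minus strand, the second of 2 listed starts) are the members of complexes I and V with the lowest p between ATG-treated groups and hold 3 and 1 matches. Sdhb (chr4:140961021-140961270, plus strand) fell most between those groups and Cox6b2 (chr7:4753095-4753344, minus strand) rose, and neither holds a match here. The listed span of Atp5c1 reaches up to 10080510, so the end of its stretch, with the match at −17, lies inside the listed gene.
Ndufb4: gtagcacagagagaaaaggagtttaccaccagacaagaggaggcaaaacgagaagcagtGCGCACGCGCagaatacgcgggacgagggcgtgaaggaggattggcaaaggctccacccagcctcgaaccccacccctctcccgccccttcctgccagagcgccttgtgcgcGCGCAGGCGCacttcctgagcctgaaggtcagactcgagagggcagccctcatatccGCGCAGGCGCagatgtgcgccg
Atp5c1: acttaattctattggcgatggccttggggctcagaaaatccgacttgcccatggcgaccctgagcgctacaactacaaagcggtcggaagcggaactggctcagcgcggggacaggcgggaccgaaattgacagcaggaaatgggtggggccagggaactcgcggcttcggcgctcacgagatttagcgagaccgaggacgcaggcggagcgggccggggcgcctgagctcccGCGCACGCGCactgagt
Sdhb: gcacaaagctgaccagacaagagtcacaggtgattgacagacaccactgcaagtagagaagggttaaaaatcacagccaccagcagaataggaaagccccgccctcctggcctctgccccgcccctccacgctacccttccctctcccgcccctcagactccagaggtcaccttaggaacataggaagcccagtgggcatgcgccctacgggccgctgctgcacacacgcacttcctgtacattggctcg
Cox6b2: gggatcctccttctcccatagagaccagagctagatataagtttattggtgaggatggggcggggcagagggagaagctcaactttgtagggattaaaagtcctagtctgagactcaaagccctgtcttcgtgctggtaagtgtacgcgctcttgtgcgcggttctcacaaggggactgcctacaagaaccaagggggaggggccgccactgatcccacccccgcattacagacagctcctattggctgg

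A match is a string of letters and not a measured site. The 19 members with NRF1 letters had a median log2 fold change of −0.56 between diabetic and nondiabetic ATG-treated mice, and the 55 members without them −0.62. In diabetic against nondiabetic vehicle-treated mice the same medians were −0.20 and −0.30. For the 11 members with the YY1 letters they were −0.62 and −0.27. Members with and without the NRF1 letters had medians within 0.1 of each other in both comparisons.

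Over all 88 genes, the mean log2 value was 11.94, 11.90 and 11.98 in the 3 Con_DMSO mice, a range narrower than in any other group. It was 12.26, 12.10 and 12.48 in Con_ATG mice, 11.73, 12.01 and 11.35 in DM_DMSO mice, and 11.78, 11.76 and 11.67 in DM_ATG mice. All Con_ATG mice stood above all Con_DMSO mice and all DM_ATG mice stood below them, while the DM_DMSO mice spanned from the lowest of the 12 values to one above every Con_DMSO mouse. The members together took 1.19% of the summed linear values in DM_DMSO mouse 3 and 3.09% in Con_ATG mouse 3, the extremes of the 12 libraries.

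Markers of tubule cells moved with these means. The 19 distal nephron markers averaged log2 12.47, 12.55 and 12.48 in Con_DMSO, 13.00, 12.52 and 13.39 in Con_ATG, 11.57, 12.18 and 10.72 in DM_DMSO, and 11.74, 11.51 and 11.57 in DM_ATG mice. Within DM_DMSO and within Con_ATG the mice kept the same order for the distal nephron markers as for the members, but not within Con_DMSO and DM_ATG. For the proximal tubule markers Con_ATG mouse 3, the highest for the members, was the lowest of its group. The summed linear level of the distal nephron markers was 414 to 437 k (kilo) in Con_DMSO, 421 to 904 k in Con_ATG, 96.1 to 269 k in DM_DMSO and 185 to 205 k in DM_ATG mice. The sum of the 35 proximal tubule markers was 186 to 332, 384 to 644, 42.3 to 111 and 66.9 to 139 k in the same groups. No marker of either list was at 0 in any mouse. Of 13 leukocyte and 6 red cell markers, 5 and 3 rose with diabetes in vehicle-treated and 5 and 1 in ATG-treated mice, where 10.2% and 25.9% of listed genes rose, and 0 were called in either ATG comparison. The part of tubule RNA in the members' differences was not tested beyond the fits with a marker covariate given below, and in bulk glomeruli fewer cells of a type and less RNA per cell cannot be told apart.

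**Figure D2:**
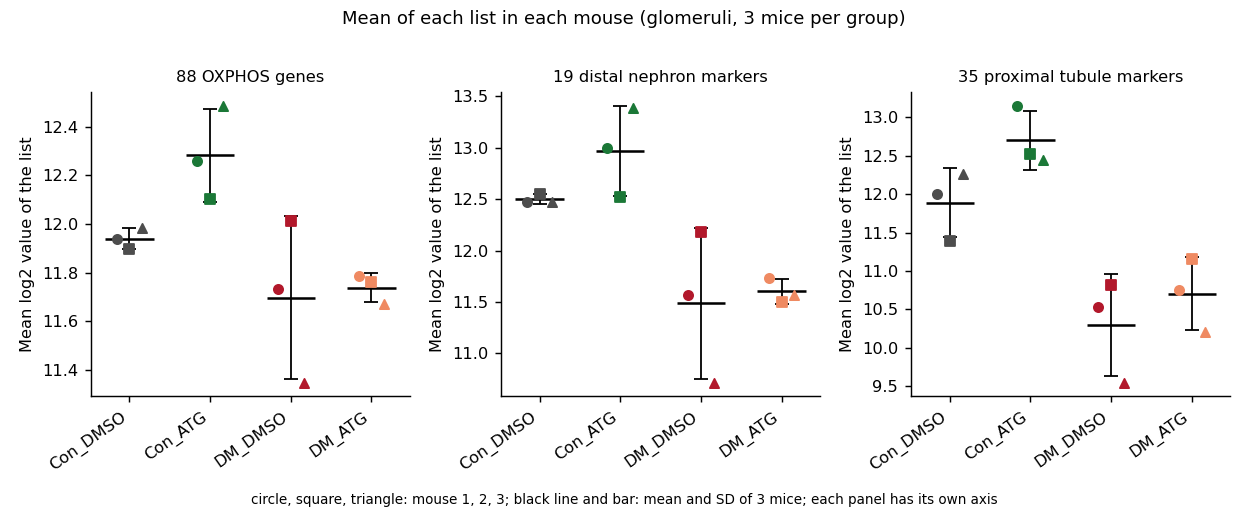
Mean log2 value in each mouse of the 88 oxidative phosphorylation genes, of 19 distal nephron markers and of 35 proximal tubule markers, with symbols for mice 1 to 3 and the group mean and SD. DM_DMSO mouse 3 is the lowest of the 12 in all 3 panels, and Con_ATG mouse 3 is the highest for the members (12.48) and for the distal nephron markers (13.39).

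Diabetes in vehicle-treated mice was examined first. Of 88 members, 1 fell and 1 rose at an adjusted p under 0.05 in limma, where 8.63% of listed genes fell and 10.2% rose. The fitted change was below 0 for 83 members, with a median of −0.27 against 0.01 over all listed genes. In 12 members the DM_DMSO mice all lay below the Con_DMSO mice and in 2 all above, against 18.7% and 23% of listed genes.

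Ndufs1, the largest iron-sulfur subunit of complex I, was the member that fell. Its log2 values were 12.46, 12.30 and 12.42 in Con_DMSO and 11.93, 12.14 and 11.57 in DM_DMSO mice. The groups did not overlap and the change was −0.52 ± 0.16 (SE, limma adjusted p = 0.0481), a call that leaving out any of 9 single mice ended. The other 35 complex I subunits did not pass the test, and the median of the 36 was −0.26.

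Complex II, succinate dehydrogenase, had the lowest class median at −0.45. Sdha, the flavoprotein that oxidises succinate, was at log2 14.15, 14.05 and 14.21 in Con_DMSO and 13.58, 13.94 and 13.25 in DM_DMSO mice, a difference of −0.55. Sdhb, the iron-sulfur subunit, differed by −0.51, and the membrane anchors Sdhc and Sdhd by −0.40 ± 0.13 (SE) and −0.35. None of the 4 passed, and Sdhc came nearest (limma adjusted p = 0.0515). For Sdha, Sdhb and Sdhc the groups did not overlap, with DM_DMSO mouse 2 the nearest to the nondiabetic mice.

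Medians of the other classes were −0.26 in complex III, −0.30 in complex IV and −0.31 in complex V, and none of their members fell at the threshold. Among their members with a value below 0, the lowest p belonged to Uqcrc2, a core subunit of complex III (−0.39, limma adjusted p = 0.0856), Ndufa4 (−0.41, adjusted p = 0.0613) and Atp5k, the ATP synthase e subunit (−0.35, adjusted p = 0.148). Uqcrfs1, the Rieske iron-sulfur protein, differed by −0.53 and Atp5b by −0.41. Values near 0 included Atp5g2, which encodes a c-ring subunit of ATP synthase, at −0.07 and Cox7a2l, a factor in supercomplex assembly, at −0.08. Assembly factors of complex I had a median of −0.08, from −0.21 for Ndufaf1 to 0.11 for Ndufaf2. Atp5sl had the lowest value of any member, −0.60 ± 0.19 (SE), and also missed the threshold (limma adjusted p = 0.0507).

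These values rest on single mice. Without DM_DMSO mouse 2, 42 members fell, where 11.6% of listed genes fell, and the median was −0.45, and without DM_DMSO mouse 3, 0 fell and the median was −0.10. In this comparison with all mice, 27 of 35 proximal tubule and 9 of 19 distal nephron markers fell, where 8.63% of listed genes fell. Of the endothelial markers 8 of 20 rose, where 10.2% of listed genes did, and 0 of 20 podocyte markers were called. With the mean of all 54 tubule markers as a covariate 0 members fell, 1 rose and the median became 0.28, and with the distal nephron markers alone 16 rose, where 7.46% of listed genes rose, 0 fell and the median was 0.18. The covariate differs between the groups itself, so the fit divides a shared difference between both terms.

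The effect of ATG in diabetic mice was small across the complexes. No member was called in either direction (limma, 0 of 88), as was no listed gene (0% and 0%), and none of the 88 had an unadjusted p under 0.05, against 636 of all listed genes. The median was 0.05, with class medians from −0.01 in the complex I assembly factors to 0.11 in complex II. The values with the lowest p in each direction and class were 0.16 for Ndufa12 and −0.06 for Ndufb4 in complex I, 0.13 for Uqcrb and −0.01 for Uqcrq in complex III, 0.15 for Ndufa4 and −0.03 for Cox7a2l in complex IV, and 0.16 for Atp5g3 and −0.04 for Atp5g2 in complex V. Among assembly factors Ndufaf4 differed by 0.19 ± 0.13 and Ndufaf3 by −0.10 ± 0.08 (SE). Sdha, at 13.68, 13.76 and 13.70 in DM_ATG mice, lay inside the DM_DMSO range of 13.25 to 13.94, and in no member did the groups separate (0 of 88 in each direction, against 3.85% of listed genes higher and 6.32% lower). The sign of the median turned with the mouse left out, from −0.13 without DM_DMSO mouse 3 to 0.21 without DM_DMSO mouse 2, and it was −0.08 with the 54 tubule markers as a covariate.

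In nondiabetic mice the values under ATG were higher. Fitted changes were above 0 for 86 of 88 members with a median of 0.38, against −0.04 over all listed genes, yet 0 passed the test as higher (background 0.709%) and 1, Ndufa4l2, fell (background 4.51%). Without the adjustment 57 members had a p under 0.05, of which Ndufa4l2 and Cox4i2 had values below 0, against 30.2% of listed genes. In 76 members all Con_ATG mice lay above all Con_DMSO mice and in 2 all below, against 14.4% and 20% of listed genes. Ndufb4, an accessory subunit of complex I, was at 12.36, 12.21 and 12.35 in Con_DMSO and 12.62, 12.53 and 12.75 in Con_ATG mice. Its difference of 0.33 ± 0.10 (SE) had the lowest p among the higher members and missed the threshold (limma adjusted p = 0.0708).

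The lowest p among the higher members of the other complexes also missed the threshold. Sdhc of complex II differed by 0.37, Uqcrb of complex III by 0.40, Ndufa4 of complex IV by 0.46 and Atp5j of complex V by 0.40, with adjusted p from limma of 0.0957, 0.0819, 0.0725 and 0.106. Uqcrfs1 had the highest value of all at 0.55, and Ndufs1 differed by 0.45 and Atp5b by 0.47. Class medians lay between 0.38 in complex I and 0.45 in complex II, and that of the complex I assembly factors was 0.23, with Ndufaf1 at 0.32. Con_ATG mouse 3 had the highest member mean of the 12, and the median was 0.27 without it. Without Con_ATG mouse 2, 29 members rose, where 7.55% of listed genes rose, and without DM_DMSO mouse 3, which enters this comparison only through the shared estimate of spread, 33 rose, where 3.24% did. All 35 proximal tubule and all 19 distal nephron markers had fitted values above 0 in the same comparison, with medians of 0.80 and 0.45 and 0 called. All 20 podocyte and all 20 endothelial markers had fitted values below 0, with medians of −0.60 and −0.64, and 0 and 9 of them fell. With the 54 tubule markers as a covariate the members' median was 0.11.

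The largest number of calls came between diabetic and nondiabetic mice that both received ATG. Of 88 members 77 fell, where 20.8% of listed genes fell, and 2 rose, where 25.9% rose. The median was −0.61 and 83 members had all DM_ATG mice below all Con_ATG mice (25.6% of listed genes), while 2 had them above (30.5%). Every subunit of complexes II (4 of 4), III (8 of 8) and V (15 of 15) fell, as did 34 of 36 in complex I, 12 of 16 in complex IV, both Atp5s and Atp5sl, and 2 of 7 assembly factors.

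Complex II again had the lowest class median, −0.82. Sdhb was at 13.62, 13.37 and 13.86 in Con_ATG and 12.71, 12.78 and 12.60 in DM_ATG mice, and its fall of 0.92 on the log2 scale was the largest of any member. Sdha followed with −0.91, Sdhc with −0.73 ± 0.13 (SE, limma adjusted p = 0.00146) and Sdhd with −0.67. No Con_ATG mouse overlapped a DM_ATG mouse for any of the 4. The class mean of complex II minus the mean of all members, computed after its values were seen, was 1.17 to 1.21 in Con_DMSO, 1.21 to 1.35 in Con_ATG, 0.96 to 1.00 in DM_DMSO and 0.99 to 1.06 in DM_ATG mice on the log2 scale, so every diabetic mouse lay below every nondiabetic mouse.

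Subunits of complexes I and III fell too. Ndufs1 was at 12.81, 12.54 and 13.20 in Con_ATG and 12.01, 12.02 and 11.95 in DM_ATG mice and fell by 0.86 on the log2 scale. Ndufb4 had the lowest p of complex I (−0.55 ± 0.10, SE, limma adjusted p = 0.00156). Ndufv1, which binds NADH, changed by −0.65. The 2 complex I subunits that did not pass were Ndufb7 at −0.29 and Ndufa11 at −0.40. In complex III, Uqcrfs1 was at 13.37, 13.10 and 13.65 in Con_ATG and 12.49, 12.49 and 12.46 in DM_ATG mice, a change of −0.90. The core proteins Uqcrc1 and Uqcrc2 changed by −0.64 and −0.73.

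In complex IV, Cox4i1, the common form of subunit 4, fell from 14.35, 14.15 and 14.63 in Con_ATG to 13.73, 13.69 and 13.58 in DM_ATG mice, a change of −0.71, and Ndufa4 changed by −0.71. Cox5a, a subunit of the same complex, changed by −0.71. Cox7a2l changed by −0.25, the smallest fall called in this complex, and it was also the member with the narrowest spread between mice of a group, a residual SD of 0.09 on the log2 scale. Ndufaf3 and Atp5s came next, each at 0.10. Cox7a1, with the widest spread at 0.39, did not pass at −0.39, nor did Cox4i2 at 0.45, and Atp5g1 (0.32) and Cox5a (0.30) followed Cox7a1 in spread. In complex V, Atp5b was at 16.38, 16.0 and 16.68 against 15.57, 15.59 and 15.56 and changed by −0.78, and Atp5c1, the gamma subunit, changed by −0.75 with the lowest p of the class (limma adjusted p = 0.0057). Atp5a1, the alpha subunit, was at 15.98, 15.65 and 16.33 in Con_ATG and at 15.21 in all 3 DM_ATG mice, a change of −0.78.

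**Figure D3:**
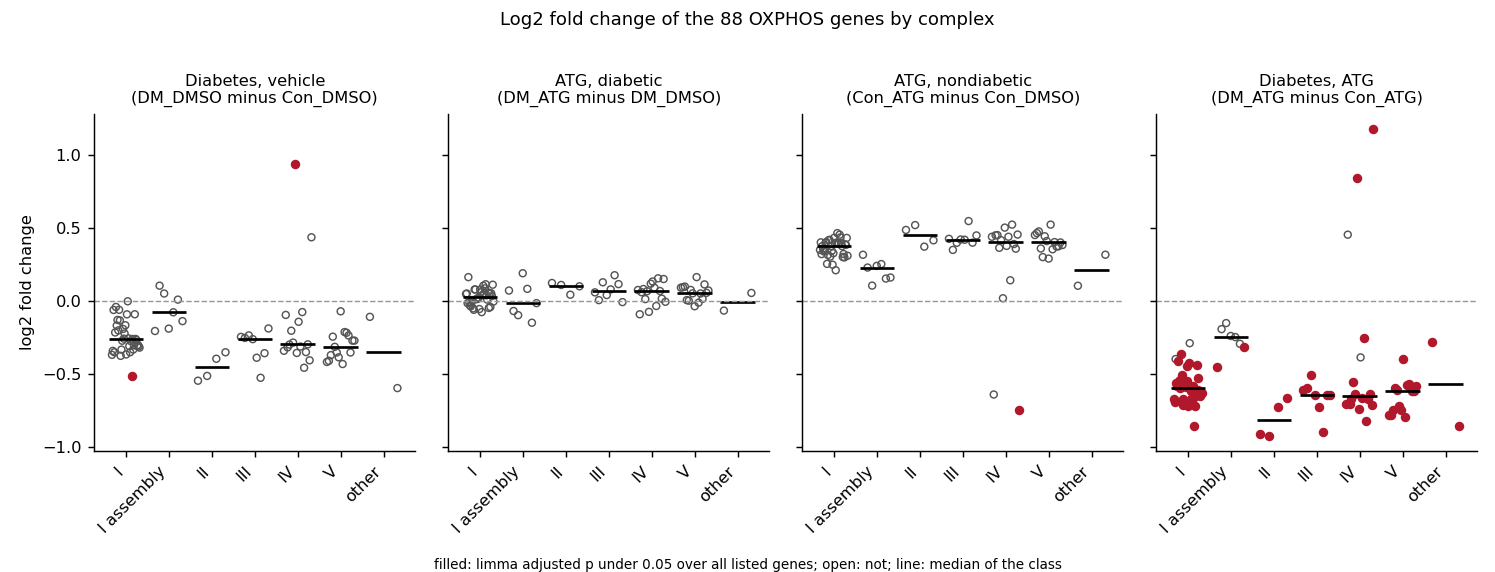
Log2 fold change of each of the 88 genes by complex in 4 comparisons, with filled points for an adjusted p under 0.05 in limma and a line at the class median. Filled points below 0 fill the right panel (77 genes), where the complex I assembly factors sit nearest to 0 and complex II lowest, and the panel for ATG in diabetic mice holds none.

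Over the mice left out in turn, 56 to 80 members fell between the ATG-treated groups. The lowest count was without Con_ATG mouse 3, where 14.6% of listed genes fell, and the highest without DM_DMSO mouse 2, where 21.7% did. Without DM_DMSO mouse 3 and Con_ATG mouse 3 together 75 fell, where 18.7% of listed genes did. Without the 2 mice that have no number in their titles (mouse 3 of Con_DMSO and of Con_ATG) 36 fell, where 13.0% did. In the same comparison all 35 proximal tubule markers and 17 of 19 distal nephron markers fell, with medians of −1.91 and −1.38, where 20.8% of listed genes fell. Of the endothelial markers 19 of 20 rose, as did 11 of 16 mesangial and 7 of 20 podocyte markers, where 25.9% of listed genes rose. With the 54 tubule markers as a covariate 0 members fell and 0 rose and the median was 0.10, and it was 0.02 with the distal nephron markers alone and −0.10 with the proximal tubule markers alone, with 0 fallen in both.

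**Figure D4:**
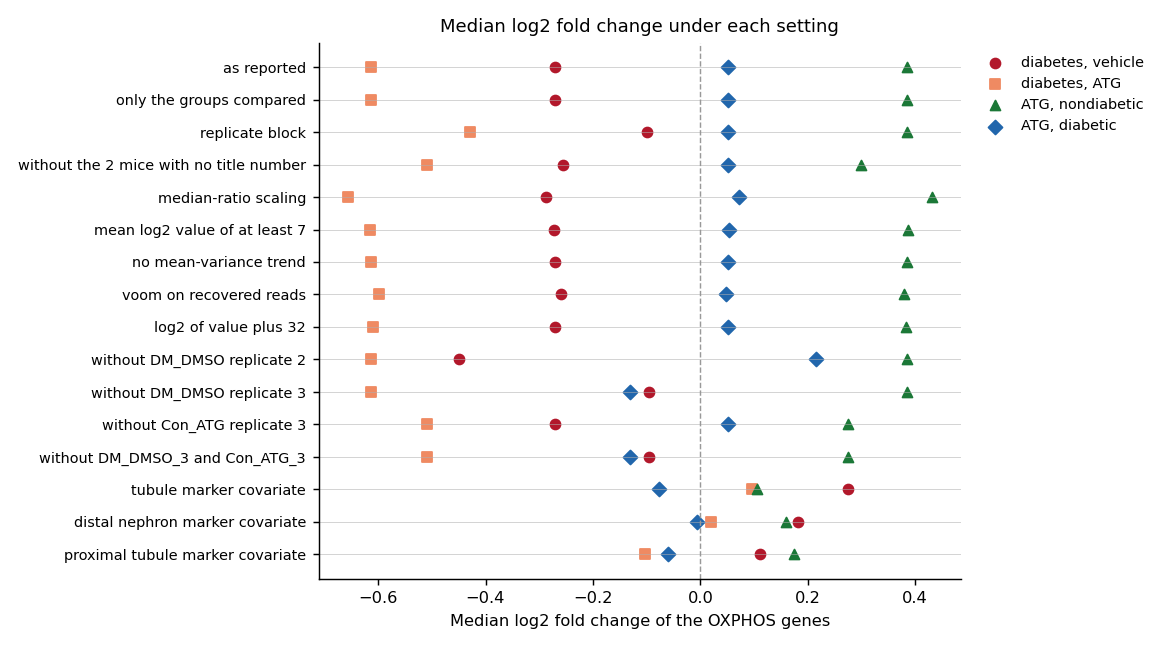
Median log2 fold change of the oxidative phosphorylation genes in 4 comparisons as reported and under 15 other settings, with a dashed line at 0. The median for diabetes in ATG-treated mice lies near −0.61 under the settings that change scaling, filter or variance model and between −0.10 and 0.10 with a tubule marker covariate.

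The difference between the ATG effects in diabetic and nondiabetic mice was tested directly. No member passed (limma, 0 of 88 in each direction, with 4 at an unadjusted p under 0.05 against 12.9% of listed genes), where 0.539% of listed genes were called higher and 0.00709% lower. The fitted difference was below 0 for 86 members and its median was −0.34, and −0.18 with the 54 tubule markers as a covariate. Ndufb4 of complex I had −0.38 ± 0.14 and Ndufa4l2 had 0.74 ± 0.27 (SE), both at a limma adjusted p of 0.286, the lowest among the members. Sdhc (−0.33), Uqcrq (−0.46), Cox7a2l (−0.18), Ndufaf2 (−0.30) and Atp5g2 (−0.33) had the lowest p among the members of their classes with a value below 0. A difference between the 2 ATG effects was therefore not shown for any single member.

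Restricted isoforms of complex IV were set beside their common partners. Ndufa4l2, a hypoxia-inducible relative of Ndufa4 that is also known as a marker of pericytes and other mural cells, was at 8.85, 8.99 and 9.42 in Con_DMSO, 8.33, 8.65 and 8.03 in Con_ATG, 9.43, 9.47 and 9.67 in DM_DMSO, and 9.28, 9.78 and 9.49 in DM_ATG mice. All Con_ATG mice lay below all others. It fell under ATG in nondiabetic mice by 0.75 on the log2 scale (SE 0.19, limma adjusted p = 0.0469) and was higher in diabetic than in nondiabetic ATG-treated mice by 1.18 ± 0.19 (SE, adjusted p = 0.000932).

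The first of these calls was fragile, since it was lost in 20 of 24 other settings while its value stayed between −0.90 and −0.43. The second was lost in 3, the fits with a tubule marker covariate, with values from 0.73 to 1.34 over all settings. In vehicle-treated mice the difference for diabetes was 0.44 and did not pass, and under ATG in diabetic mice it was −0.01. Per length, Ndufa4l2 made up 2.72 ± 0.54% of the sum of Ndufa4l2 and Ndufa4 in Con_DMSO, 1.23 ± 0.39% in Con_ATG, 4.84 ± 1.44% in DM_DMSO and 4.29 ± 0.73% in DM_ATG mice (SD, n = 3 each). The gene overlaps Shmt2, and whether reads were counted by strand is not given in the sources used here.

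Mesangial markers moved with Ndufa4l2 under ATG in nondiabetic mice. Of 16, 12 fell, where 4.51% of listed genes fell, with a median of −0.85. Their summed linear level was 60.8 to 77.2 k in Con_DMSO and 30.9 to 40.2 k in Con_ATG mice, and none was at 0. All 20 podocyte and all 20 endothelial markers also had values below 0 in this comparison, with medians of −0.60 and −0.64. Between vehicle-treated groups, where Ndufa4l2 was 0.44 higher in diabetes, the mesangial median was −0.27 with 3 fallen and 1 risen. Between ATG-treated groups, where Ndufa4l2 was 1.18 higher in diabetes, the mesangial median was 0.72. There 11 of the 16 mesangial markers rose, where 25.9% of listed genes rose. The part of these markers in the Ndufa4l2 values was not tested. Cox4i2, the hypoxia-responsive form of subunit 4, was at 6.25, 6.78 and 6.83 in Con_DMSO and 5.96, 5.99 and 5.99 in Con_ATG mice. Its difference of −0.64 did not pass, although the groups did not overlap, and its share of Cox4i2 and Cox4i1 per length was 0.59% in Con_DMSO, 0.28% in Con_ATG, 0.72% in DM_DMSO and 0.63% in DM_ATG mice.

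Cox6b2, a form of subunit 6b known from testis, was the member that rose with diabetes in vehicle-treated mice. Its log2 values were 6.10, 5.99 and 6.02 in Con_DMSO, 6.38, 5.86 and 5.93 in Con_ATG, 7.26, 7.16 and 6.51 in DM_DMSO, and 7.07, 6.67 and 6.97 in DM_ATG mice, from 48 to 133 reads per mouse. Every diabetic mouse lay above every nondiabetic mouse, with DM_DMSO mouse 3 the closest. The rise was 0.94 ± 0.21 in vehicle-treated mice (SE, limma adjusted p = 0.0154) and 0.85 in ATG-treated mice (adjusted p = 0.0087), and the differences under ATG were −0.07 in diabetic and 0.02 in nondiabetic mice and did not pass. The call in vehicle-treated mice was lost without Con_DMSO mouse 1 (0.97), without DM_DMSO mouse 1 (0.80) and with the proximal tubule markers as a covariate (1.42). With the 54 tubule markers as a covariate the value was 1.52 in vehicle-treated mice and remained a call, and it was 1.59 in ATG-treated mice and was not. The call in ATG-treated mice was also lost with the proximal tubule markers alone (1.44). Cox6b1, the common form, had values of 13.26 to 13.35 in Con_DMSO, 13.51 to 14.01 in Con_ATG, 12.53 to 13.49 in DM_DMSO and 13.02 to 13.15 in DM_ATG mice. Cox6b2 made up 0.64% of both per length in Con_DMSO, 0.49% in Con_ATG, 1.49% in DM_DMSO and 1.35% in DM_ATG mice.

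Cox7a1, the form of subunit 7a of heart and skeletal muscle, ranged from 7.64 in DM_DMSO mouse 3 to 9.08 in Con_ATG mouse 3 and made up between 8.61% and 10.3% of Cox7a1 and Cox7a2 per length in the group means. Cox7a2 itself ranged from 12.05 to 13.46 with the same 2 mice at the ends. Cox6a2 and Cox8b, the other muscle forms, were not among the listed genes used here.

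**Figure D5:**
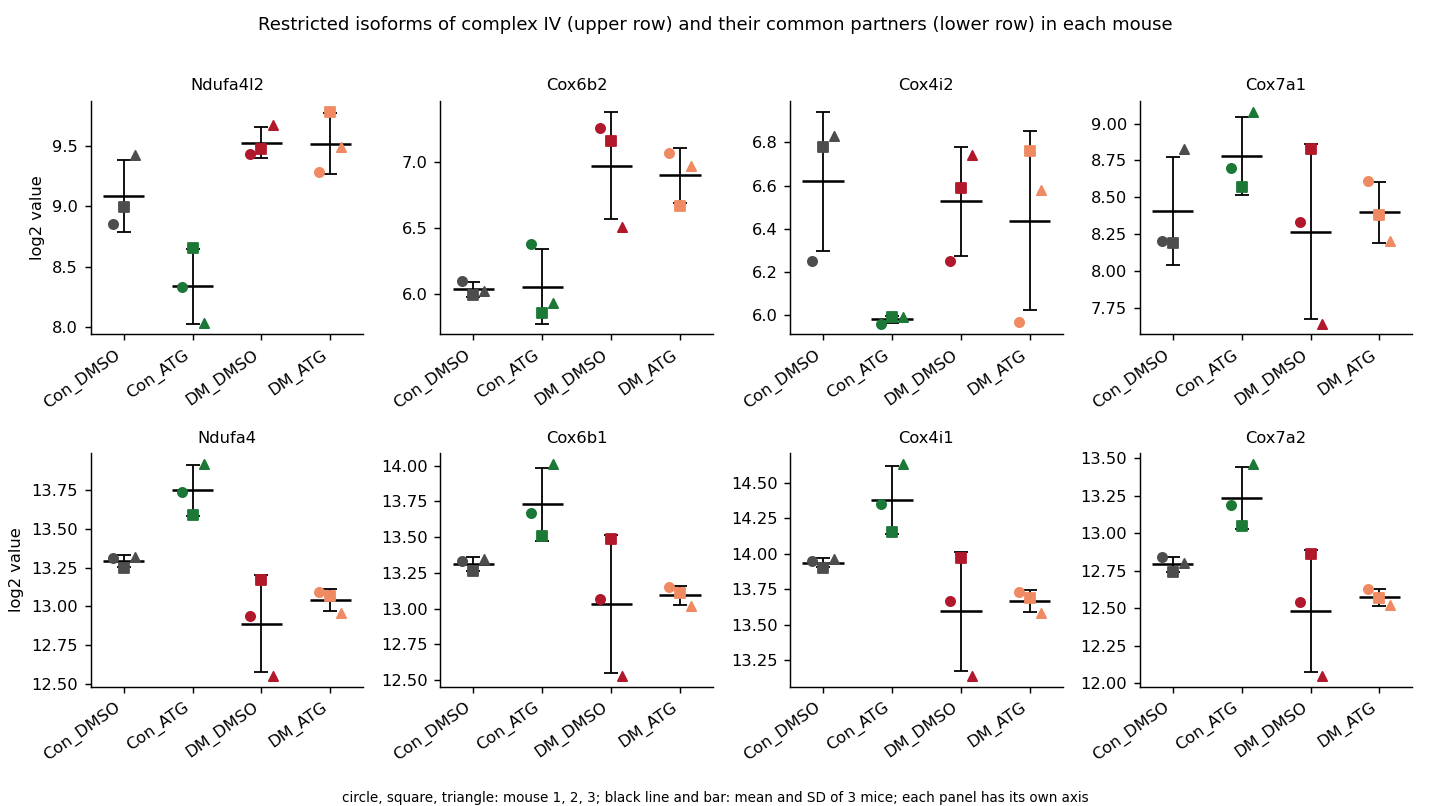
Log2 value in each mouse of Ndufa4l2, Cox6b2, Cox4i2 and Cox7a1 (upper row) and of the common forms Ndufa4, Cox6b1, Cox4i1 and Cox7a2 (lower row), with the group mean and SD of 3 mice. Ndufa4l2 is lowest in Con_ATG mice (8.03 to 8.65), Cox6b2 is higher in both diabetic groups, and DM_DMSO mouse 3 is the lowest of its group for each of the common forms.

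The assembly factors of complex I had class medians nearer to 0 than its subunits in both comparisons of diabetes. They were −0.08 against −0.26 in vehicle-treated and −0.25 against −0.59 in ATG-treated mice. With the distal nephron markers as a covariate both medians in vehicle-treated mice turned above 0, at 0.13 against 0.18. The class mean of the 7 factors minus that of the 36 subunits was −2.64 ± 0.05 in Con_DMSO, −2.79 ± 0.08 in Con_ATG, −2.46 ± 0.15 in DM_DMSO and −2.48 ± 0.04 in DM_ATG mice (log2, SD, n = 3). Ndufaf1, a part of the mitochondrial complex I intermediate assembly complex, was at 9.35, 9.29 and 9.45 in Con_ATG and 8.90, 9.03 and 8.81 in DM_ATG mice and fell by 0.45 on the log2 scale (SE 0.11, limma adjusted p = 0.00734). Ndufaf7, a methyltransferase, was the other factor that fell, by 0.31. Ndufaf3 stood nearest to 0 at −0.15, with values of 9.58, 9.71 and 9.86 against 9.58, 9.55 and 9.57.

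Genes that the symbol rule does not take and that serve the same pathway were counted from lists. Of 38 assembly factors of complexes II to V and further factors of complex I, 1 rose and 1 fell with diabetes in vehicle-treated mice and 20 fell in ATG-treated mice. Of all listed genes 10.2% rose and 8.63% fell in the first comparison and 20.8% fell in the second, and the lists below are read against the same shares. In vehicle-treated mice these were Uqcc2, a complex III assembly factor (0.27), and Coa7, a complex IV assembly factor (−0.33). The next in p in each direction, which did not pass, were Coa5 at −0.23 and Cox18 at 0.24. Of 16 genes for electron carriers, which make coenzyme Q and cytochrome c or feed electrons to them, 0 were called with diabetes in vehicle-treated mice and 12 fell in ATG-treated mice. One of the 12, Cyc1 (−0.73), encodes cytochrome c1, a subunit of complex III whose symbol the rule leaves out, and it was named after its value was seen. The lowest p in vehicle-treated mice belonged to Etfdh (−0.31) and Etfa (−0.57), which pass electrons from fatty acid oxidation, and to Gpd2 in the other direction (0.12).

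Enzymes of the tricarboxylic acid cycle, which supplies NADH and succinate, fell in 3 of 14 cases with diabetes in vehicle-treated mice and in 14 of 14 in ATG-treated mice. Those 3 were Sucla2 (−0.31), Suclg2 (−0.61) and Idh2 (−0.65). Of 15 regulators of mitochondrial biogenesis, Ppargc1a, the coactivator PGC-1 alpha, fell in vehicle-treated diabetes by 1.23 on the log2 scale (limma adjusted p = 0.0196) and Pprc1, a related coactivator, rose by 0.49 (adjusted p = 0.0407). Ppargc1b at −0.52 and Nrf1 at 0.27 were next in p in their direction and did not pass. In ATG-treated mice 7 regulators fell and 2 rose with diabetes, Nrf1 by 0.45 and Pprc1 by 0.51, against the shares of 20.8% and 25.9% of listed genes. Under ATG in nondiabetic mice Etfdh (0.46), Sucla2 (0.34), Tfb2m, a mitochondrial transcription factor (0.33), and the assembly factors Nubpl (0.38) and Coa6 (0.32) rose. These calls were fragile, since each of the 5 was lost in 9 to 17 of 24 other settings, among them the fit on the groups compared alone, the fit without Con_DMSO mouse 2 and the fit with the 54 tubule markers, where 0 of all listed genes rose. The 5 genes and Idh2 were named after their values were seen, and under ATG in diabetic mice 0 genes of the 4 lists were called. The tubule markers described above moved in the same comparisons. With the 54 tubule markers as a covariate, none of the 7 genes of these lists called in vehicle-treated diabetes was called, and their values were 0.33 for Uqcc2, −0.25 for Coa7, −0.07 for Sucla2, 0.012 for Suclg2, 0.0084 for Idh2, −0.44 for Ppargc1a and 0.63 for Pprc1.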

How the data were processed

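Glomerular mRNA of 12 mice was measured by sequencing, with 3 mice in each of 4 groups taken from the labels. The authors deposited log2 values for 14096 genes per mouse, and per the labels the submitters' processing notes name mm10 and limma, while the aligner, the counter and the strand setting are not given in the sources used here. Among genes under 2000 reads in a library, 83.4% to 83.9% had a linear value that was a whole multiple, within 0.02, of what 1 read is worth there. The worth of 1 read gave depths of 23.6 to 29.8 M reads on listed genes.

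limma 3.58.1 (R 4.3.3) was fitted to all listed genes in the 12 mice at once, with a mean-variance trend, no covariate and no filter. The 5 two-sided contrasts were diabetes under vehicle, ATG in diabetic mice, ATG in nondiabetic mice, diabetes under ATG, and the difference between the ATG effects. Values of p were adjusted by Benjamini-Hochberg over all 14096 genes and called under 0.05. The limma steps were tested on simulated data. Replicates differed by more than sampling noise, and each mouse counted once.

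Named genes are the catalytic subunits, restricted isoforms with their partners, members of lowest p per class and direction, members called under ATG, and members with extreme residual SD. A catalytic subunit that the rule names is not reported here. For the other lists the 2 of lowest p per direction in vehicle-treated diabetes are named. The members, gene lists and tests were chosen with earlier results of these data known. Promoters are from RefSeq (GRCm38.p6).

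Alternatives were the groups compared alone, a replicate block, each mouse left out, the 2 mice without a title number left out, median-ratio scaling, a mean log2 value of at least 7, no trend, voom on recovered reads, a tubule marker covariate and a pseudocount of 32. Separate covariates for distal nephron and proximal tubule markers, and the fit without DM_DMSO mouse 3 and Con_ATG mouse 3, were chosen after seeing the data.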

Additional observations from a re-analysis of the deposited data

How the results depend on the processing

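Direction held for most values, and counts of calls did not. Among the values of named genes under other settings, 1942 stayed on their side of the threshold, 275 lost the call, 59 gained one, 91 changed sign with no call on either side and 20 changed sign with one.

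With mice left out in turn, the members that rose and fell in vehicle-treated diabetes numbered 0 to 1 and 0 to 42, with medians from −0.45 to −0.10. Under ATG in nondiabetic mice they numbered 0 to 33 and 0 to 1, with medians from 0.27 to 0.48. In diabetes under ATG they numbered 2 to 3 and 56 to 80, with medians from −0.70 to −0.51. There 14.6% of listed genes fell at the count of 56 and 21.7% at the count of 80. The median ran from −0.13 to 0.21 for ATG in diabetic mice and from −0.52 to −0.16 for the difference between the ATG effects, with 0 called in both.

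With the distal nephron covariate, 16 rose and 0 fell in vehicle-treated diabetes (median 0.18, with 7.46% of listed genes risen), 1 rose and 0 fell under ATG in nondiabetic mice (0.16), and 1 rose and 0 fell in diabetes under ATG (0.019). With the proximal tubule covariate 0 rose and 0 fell in these 3 comparisons (medians 0.11, 0.17 and −0.10). With both lists together 0 fell in any (medians 0.28, 0.11 and 0.10), and 0 rose in diabetes under ATG.

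These 20 values arose under the covariates only. With both lists, in vehicle-treated diabetes, Suclg2 was at 0.012 and Idh2 at 0.0084, and in diabetes under ATG Ndufaf1 was at 0.029, Ndufaf7 at 0.019, Ndufv1 at 0.046, Sdhd at 0.092, Uqcrc1 at 0.14, Uqcrfs1 at 0.053, Cox4i1 at 0.13, Cox5a at 0.35, Cox7a2l at 0.0039, Atp5b at 0.13 and Atp5c1 at 0.025. With the distal nephron markers Atp5g2 was at 0.26 in vehicle-treated diabetes, and in diabetes under ATG Sdhd was at 0.053, Uqcrc1 at 0.083, Cox4i1 at 0.054, Cox5a at 0.21 and Atp5b at 0.087. With the proximal tubule markers Cox5a was at 0.064. The covariate shares the group difference by construction, and the cause was not tested further.

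In vehicle-treated diabetes 0 fell without the trend and with only the groups compared, 0 rose at a mean log2 value of at least 7 (Cox6b2 is below it), 2 fell without DM_DMSO mouse 3 and Con_ATG mouse 3, and 2 rose and 0 fell without the 2 mice that have no title number. Under ATG in nondiabetic mice 0 fell with median-ratio scaling, without the trend, with only the groups compared, with voom, and without either pair of mice. In diabetes under ATG 1 rose at a mean of at least 7, and 36 fell without the 2 unnumbered mice. The cause of these shifts was not tested. The fit on the groups compared alone gives no value for the difference between the ATG effects.

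The replicate block used the number in the title, which the labels do not tie to a shared litter or day, and the mice are different animals. Over all pairs of groups, deviations of same-numbered mice correlated at −0.59 to 0.339. Between DM_DMSO and DM_ATG mice they correlated at 0.315, 0.0537 and 0.339, and 5 of the 6 diabetic mice correlated best with their own number. Whether the numbers mark pairs among the diabetic mice was not tested. Number 3 stands in diabetic titles alone, and the titles without a number are nondiabetic. With this block, mouse 3 of a group therefore enters the comparisons of diabetes only through the ATG differences. With the replicate block 0 members fell in vehicle-treated diabetes (median −0.10, and 0.07 for the complex I assembly factors). In diabetes under ATG 44 fell (13.4% of listed genes fell). Under ATG in nondiabetic mice 4 rose and 0 fell. The calls lost for diabetes thus cannot be read as an effect of the replicate number.

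Cox6b2 had 48 to 133 reads and Cox4i2 50 to 107, and all results rest on 3 mice per group.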

Other observations

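The 3 genes that encode the same c-ring protein of ATP synthase took different shares across groups. Per length, Atp5g3 made up 44.4 ± 1.33% of their sum in Con_DMSO, 47.3 ± 1.23% in Con_ATG, 40.8 ± 1.97% in DM_DMSO and 43.5 ± 0.40% in DM_ATG mice (SD, n = 3). Atp5g2 made up 26.9 ± 1.05%, 24.4 ± 1.63%, 31.9 ± 4.56% and 29.6 ± 1.19% in the same order, and Atp5g1 28.7%, 28.3%, 27.3% and 27.0%. Every DM_DMSO mouse had a lower Atp5g3 share (38.5% to 41.9%) and a higher Atp5g2 share (28.6% to 37.1%) than every Con_DMSO mouse (42.8% to 45.1% and 26.3% to 28.1%). DM_DMSO mouse 3, the mouse with the lowest tubule marker level, held the ends of both ranges. The shares were chosen after their values were seen and were not tested.

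Of the 88 members, 27 overlap another gene of the reference and 10 overlap another listed gene, and without a stated strand setting reads of such pairs cannot be told apart. Values of 75 members were whole reads in all 12 libraries, and each of the other 13 has more than 1 listed transcript.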
